A study of Homo sapiens with 12 samples.

Results

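The germinal centre is the structure of lymph nodes in which B cells that have met antigen divide, mutate their antibody genes and are selected, and diffuse large B-cell lymphoma (DLBCL) of the germinal centre B-cell (GCB) subtype keeps many features of these cells. Its programme is held by transcription factors, above all the repressors BCL6 and BACH2, which keep the cells from becoming plasma cells, and the activator MEF2B, and it is read out through surface and signalling proteins that are high at this stage. The 9 genes described here were BCL6, BACH2, MEF2B, MYBL1, LMO2, SERPINA9, MME, RGS13 and GCSAM, taken by symbol from the 60675 genes counted in each library. All 9 passed the filter on low counts in each line.

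RNA was sequenced from SUDHL6 and SUDHL16, human DLBCL lines of the GCB subtype that are sensitive to venetoclax, an inhibitor of the anti-apoptotic protein BCL2, and from a resistant line derived from each. Chronic exposure to rising doses of venetoclax (ABT-199) gave resistant lines that grew at 10 or more times the original IC50, the inhibitory concentration by which sensitivity is measured. Each of the 4 groups (SUDHL6-parental, SUDHL6-resistant, SUDHL16-parental and SUDHL16-resistant) had 3 libraries, 12 in all. The sources used here do not say whether the libraries of a group came from separate cultures or which passages they were, so the p-values measure the spread between these libraries, which may be technical. The library kit and the sequencer were NEBNext Ultra II and HiSeq for SUDHL6, and the Stranded Total RNA Prep of Illumina with RiboZero Plus and NovaSeq for SUDHL16, so the line, the kit and the sequencer cannot be told apart.

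The libraries held 33992784 to 40885665 counts in SUDHL6 and 4131927 to 22068221 in SUDHL16. The lowest total belonged to the parental SUDHL16 library CE-26, with 55.4% of its counts on protein-coding genes where the other 5 SUDHL16 libraries had 84.3% to 90.2%. The biological coefficient of variation, which is edgeR's measure of spread between libraries, was 0.0516 in SUDHL6 and 0.468 in SUDHL16, or 0.339 without CE-26, so the edgeR results of SUDHL16 on the 9 genes are given with and without CE-26. The 5 B-cell markers checked (MS4A1, CD79A, CD79B, PAX5 and CD22) were present in every library, with a summed level of 2254 to 4020 CPM, a gene's counts per 1000000 counts of the library after scaling, and 0 of 5 were called in either line by edgeR. Their unadjusted p was under 0.05 for 5 in SUDHL6, where 45.2% of all genes had such a p, and for 0 in SUDHL16, where 19.1% did. The 6 myeloid markers summed to at most 1.24 CPM in all libraries except CE-26, where they summed to 15.2 CPM, and 3 to 6 of them were at 0 in each of the other libraries. The 6 T-cell markers summed to 3.10 to 3.94 CPM in SUDHL6 and 18.5 to 33.4 CPM in SUDHL16, with 1 to 4 of them at 0. In SUDHL16, 5 red-cell markers summed to 151 to 1372 CPM in the parental libraries, highest in CE-26, and 5.51 to 136 CPM in the resistant ones, and 6 stromal, endothelial and epithelial markers to 19.7 to 48.6 and 0.804 to 2.08 CPM. In SUDHL6 these lists stayed at or under 0.547 and 2.66 CPM. Of these lists CD3E, a T-cell gene (2.31 to 12.4 CPM, edgeR adjusted p = 0.045), and DCN, a stromal gene (21.7 to 0.220 CPM, edgeR adjusted p = 0.0027), were called in SUDHL16, in a different direction each. The part of such signal in the SUDHL16 results was not tested.

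The region just before a start that RefSeq annotates is shown for 4 members, MEF2B and RGS13 because the window held a match to a motif searched for here, and BACH2 and MME because they fell in resistant SUDHL6. From RefSeq (GRCh38.p14), 11 such windows of 250 bases were used for 7 of the 9 members, 4 of them for MME, of which 1 is shown. The starts of the MEF2B and MME stretches lie inside the gene as GENCODE bounds it, not at its outer end. LMO2 and MYBL1 had no entry. A search on both strands, with motifs chosen after these sequences were seen, covered the octamer ATGCAAAT, the BCL6 and STAT type motif TTCNNNGAA, the MEF2 type motif (CTA and TAG with any 4 bases between them) and the BACH and AP-1 type motif TGAGTCA. Capitals in the sequences mark a match, and bases that are exons of the gene itself in GENCODE 44 are left out. The stretches are 5′ to 3′ on the strand of the gene, at chr19:19170290-19170513 (minus strand) for MEF2B, chr1:192635897-192636137 (plus strand) for RGS13, chr6:90296844-90297093 (minus strand) for BACH2 and chr3:155079422-155079646 (plus strand) for MME.
MEF2B: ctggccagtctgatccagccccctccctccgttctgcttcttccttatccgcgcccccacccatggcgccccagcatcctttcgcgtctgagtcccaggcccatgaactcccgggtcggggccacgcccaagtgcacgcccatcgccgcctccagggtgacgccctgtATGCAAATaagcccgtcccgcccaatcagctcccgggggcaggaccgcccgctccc
RGS13: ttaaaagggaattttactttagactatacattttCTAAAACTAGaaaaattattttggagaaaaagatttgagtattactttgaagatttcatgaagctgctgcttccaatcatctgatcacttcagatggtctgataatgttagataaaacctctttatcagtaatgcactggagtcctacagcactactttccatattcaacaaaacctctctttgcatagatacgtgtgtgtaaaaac
BACH2: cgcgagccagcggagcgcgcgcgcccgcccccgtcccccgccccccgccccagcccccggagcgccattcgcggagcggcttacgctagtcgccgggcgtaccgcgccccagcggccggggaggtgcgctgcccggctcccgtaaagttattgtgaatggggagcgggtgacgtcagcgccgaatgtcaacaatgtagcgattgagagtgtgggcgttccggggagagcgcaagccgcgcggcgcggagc
MME: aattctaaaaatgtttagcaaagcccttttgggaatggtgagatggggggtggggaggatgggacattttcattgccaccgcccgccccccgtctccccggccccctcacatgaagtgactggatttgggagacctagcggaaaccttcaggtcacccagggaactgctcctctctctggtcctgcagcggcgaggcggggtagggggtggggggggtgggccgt

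MEF2B held an octamer, the element that OCT factors bind in antibody gene promoters, between 82 and 75 bases before its start. SERPINA9 held 2 octamers, at 133 to 126 and 96 to 89 bases before the start. Of all 35116 RefSeq windows of this length, 1.63% held an octamer. RGS13 held a match to the loose MEF2 type pattern (2.36% of all windows) at 216 to 207 bases, with AAAC as its middle bases. GCSAM held a BCL6 and STAT type match (6.57% of all windows) at 245 to 237 bases, and the BCL6 starts a match of the same type at 28 to 20 bases and a BACH and AP-1 type match (4.20% of all windows) at 77 to 71 bases. None of the 4 motifs was found in the windows of BACH2 and MME. The GC content of the shown stretches ran from 32% in RGS13 to 73.6% in BACH2. A match describes these letters only.

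The members differed in level, which was compared between genes as RPKM, CPM divided by the exon length in kilobases. MEF2B had the highest level of the 9 in every group, at 164 ± 9.18 RPKM in SUDHL6-parental, 158 ± 3.32 in SUDHL6-resistant, 164 ± 27.2 in SUDHL16-parental and 315 ± 111 in SUDHL16-resistant (mean ± SD, n = 3 in each). In SUDHL6-parental it was followed by RGS13 (56.4), GCSAM (52.2), BCL6 (29.8), MYBL1 (16.01), MME (10.99), BACH2 (8.98), LMO2 (2.45) and SERPINA9 (0.362 RPKM), and the ranges of no neighbours in this order overlapped. In SUDHL6-resistant the order was the same at both ends, but GCSAM stood above RGS13, LMO2 stood above BACH2 and MME, and the ranges of BACH2 (5.61) and MME (5.42 RPKM) overlapped. In SUDHL16-parental BCL6 was next after MEF2B, at 91.4 RPKM, then SERPINA9 (54.2), LMO2 (43.9), RGS13 (39.3), GCSAM (23.7), MYBL1 (15.9), MME (14.6) and BACH2 (0.259 RPKM). Here SERPINA9, LMO2 and RGS13 overlapped as neighbours, and so did GCSAM, MYBL1 and MME. In SUDHL16-resistant the order ran from BCL6 (69.2) through SERPINA9 (60.04), LMO2 (44.2), RGS13 (43.7), GCSAM (26.4), MME (20.1) and MYBL1 (11.97) to BACH2 (0.222 RPKM). The neighbours that overlapped were BCL6 and SERPINA9, LMO2 and RGS13, RGS13 and GCSAM, and GCSAM and MME. The member at the bottom differed by line. SERPINA9 was the lowest in SUDHL6 and BACH2 the lowest in SUDHL16. These levels were not tested between the lines, since kit and instrument differ with the line.

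**Figure D1:**
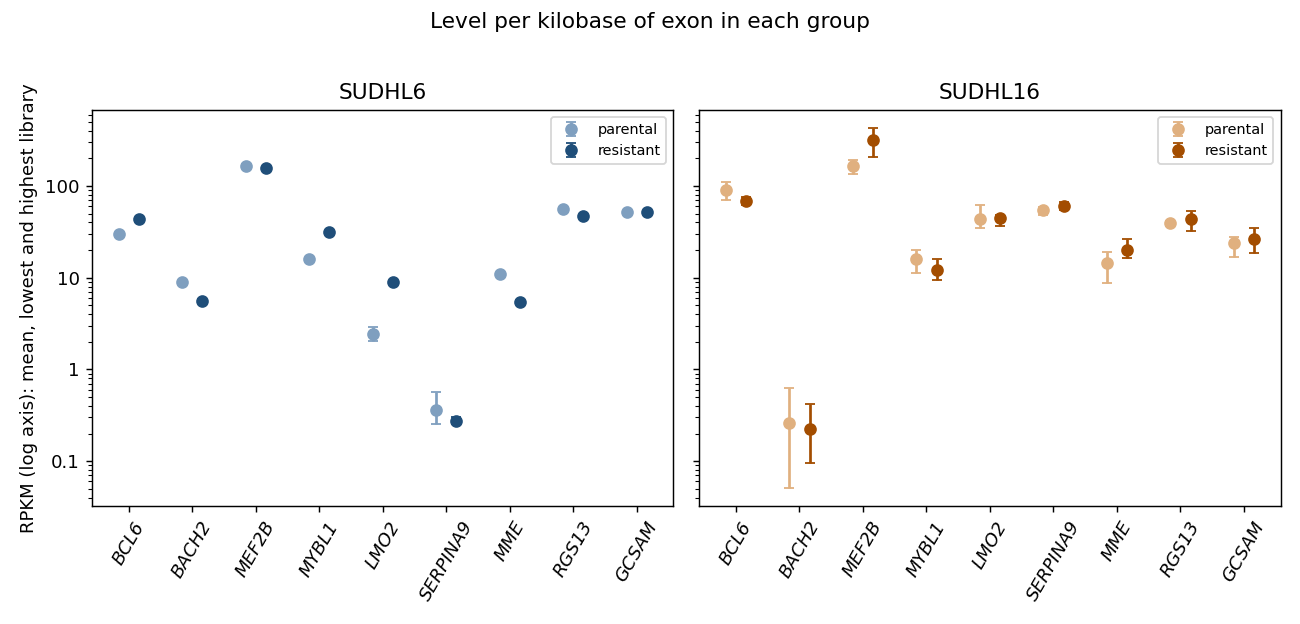
Level of the 9 genes in RPKM on a log axis, for SUDHL6 (left) and SUDHL16 (right), with the mean of 3 libraries as a point and the lowest and highest library as whiskers. SERPINA9 lay under 1 RPKM in SUDHL6 and at 47.7 or more in SUDHL16, and BACH2 lay under 1 RPKM in SUDHL16 and at 5.48 or more in SUDHL6.

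In resistant SUDHL6, LMO2 and MYBL1 rose and MME and BACH2 fell. Calls needed 1.5-fold or more and an adjusted p below 0.05 in edgeR's quasi-likelihood test, and by this rule 4 of the 9 members were called, where 8.96% of the 16662 genes tested were called. Of the members 2 were higher, where 4.31% of all genes were called higher, and 2 lower, where 4.65% of all genes were called lower. The groups did not overlap for 6 of the 9, a separation that 47.9% of all genes tested showed. The median log2 fold change of the members was -0.06 and that of all genes 0.00. In bulk RNA, fewer cells of a type and less RNA per cell cannot be told apart.

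In resistant SUDHL16, 0 of the 9 members were called by edgeR, where 5.3% of the 15708 genes tested were called. At an unadjusted p under 0.05 the count was 1, MEF2B, where 19.1% of all genes had such a p, and DESeq2 and limma voom with library weights each called that gene alone. The groups did not overlap for 1 member, MEF2B, against 26.6% of all genes tested. Without CE-26 the count of called members was again 0, where 10% of 16280 genes were called, and 2 members (BCL6 and MEF2B) had an unadjusted p under 0.05, as did 23.3% of all genes. The groups then did not overlap for 5 of the 9, BCL6 and MYBL1 (lower) and BACH2, MEF2B and LMO2 (higher), against 42.2% of all genes tested. The median log2 fold change of the members was 0.15, and 0.11 without CE-26.

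**Figure D2:**
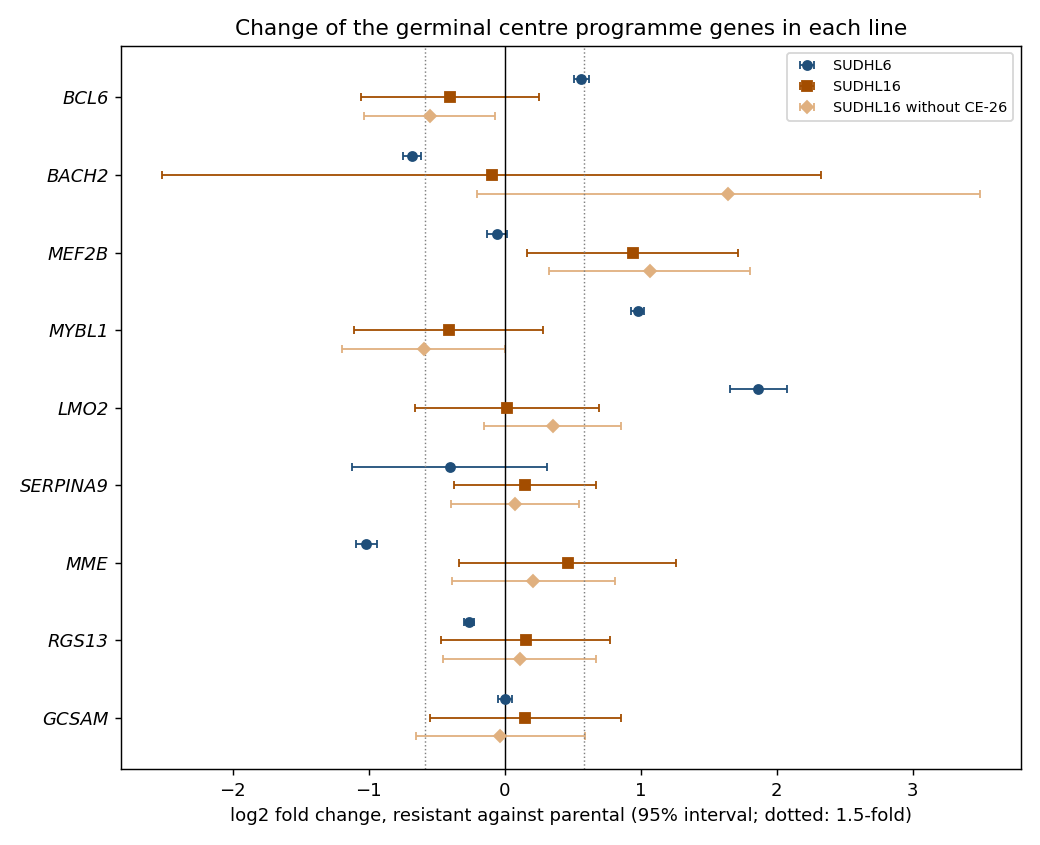
Log2 fold change of each member, resistant against parental, with its 95% interval, for SUDHL6 (circles), SUDHL16 (squares) and SUDHL16 without CE-26 (diamonds). Dotted lines mark a 1.5-fold change. The SUDHL6 intervals are narrow except for SERPINA9, and among the SUDHL16 intervals with all libraries that of MEF2B alone lies to one side of 0.

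BCL6 (ENSG00000113916, chr3:187721377-187745725, minus strand), the zinc-finger repressor that the germinal centre stage needs, was measured at 183, 171 and 176 CPM in the parental SUDHL6 libraries CE-7, CE-8 and CE-9 and at 259, 260 and 263 CPM in the resistant libraries CE-10, CE-11 and CE-12. Every resistant library was above every parental library. The log2 fold change was 0.56 (95% interval 0.51 to 0.62, edgeR adjusted p = 4.2e-09), a change of 1.48-fold that stayed just under the 1.5-fold limit. Without CE-7 the log2 fold change was 0.59 and the gene was called. In SUDHL16 the level was 659, 414 and 554 CPM in the parental libraries CE-25, CE-26 and CE-27 and 368, 413 and 453 CPM in the resistant libraries CE-28, CE-29 and CE-30. The groups overlapped through CE-26, and the other 2 parental libraries were above all 3 resistant ones. Its log2 fold change was -0.40 (interval -1.06 to 0.25, edgeR adjusted p = 0.52) with CE-26 and -0.55 (interval -1.03 to -0.07, edgeR adjusted p = 0.16) without it.

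BACH2 (ENSG00000112182, chr6:89926528-90296843, minus strand), a leucine-zipper repressor that acts with BCL6 against the plasma cell programme, stood at 95.4, 97.8 and 99.7 CPM in parental SUDHL6 and at 60.4, 62.9 and 59.5 CPM in resistant SUDHL6. It fell by 0.68 on the log2 scale (interval -0.75 to -0.61, edgeR adjusted p = 4.2e-09), with all resistant libraries below all parental ones. SUDHL16 had little BACH2, with 0.992, 6.89 and 0.559 CPM in the parental libraries and 1.61, 1.04 and 4.59 CPM in the resistant ones. The highest value was in CE-26, where it rested on 20 counts. With all libraries the log2 fold change was -0.10 (interval -2.52 to 2.33, edgeR adjusted p = 0.97), and without CE-26 it turned to 1.64 (interval -0.21 to 3.49, edgeR adjusted p = 0.27), so its direction in SUDHL16 was not resolved.

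MEF2B (ENSG00000213999, chr19:19145567-19192131, minus strand), a MADS-box activator that acts upstream of BCL6, was at 344, 323 and 361 CPM in parental SUDHL6 and 336, 323 and 329 CPM in resistant SUDHL6. These groups overlapped, and the log2 fold change was -0.06 (interval -0.13 to 0.01, edgeR adjusted p = 0.20). In SUDHL16 it was at 283, 395 and 351 CPM in the parental libraries and at 642, 434 and 895 CPM in the resistant ones. Every resistant library was above every parental one, with the widest spread among the resistant libraries. The log2 fold change was 0.94 (interval 0.16 to 1.71) with an edgeR adjusted p of 0.17, and 1.06 (interval 0.32 to 1.81, edgeR adjusted p = 0.079) without CE-26. Its adjusted p was 0.0455 in DESeq2, 0.0320 in limma voom with library weights and 0.0135 in an edgeR fit of all 12 libraries. Without CE-30, the highest library, the edgeR adjusted p was 0.461, with a log2 fold change of 0.66.

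The annotation places a read-through gene, BORCS8-MEF2B, on the same strand as MEF2B, and the sources used here do not say how reads on both were divided. Of the counts on the pair, 2.77% to 6.33% were on the read-through gene in SUDHL6, and in SUDHL16 the share was 21.5%, 0.520% and 8.72% in the parental libraries and 1.0%, 3.87% and 4.68% in the resistant ones. With the counts of both added, a comparison chosen after seeing the data, the log2 fold change in SUDHL16 was 0.84 (edgeR adjusted p = 0.21), or 0.88 without CE-26 (edgeR adjusted p = 0.13).

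MYBL1 (ENSG00000185697, on chromosome 8), a member of the MYB family of activators that is high in germinal centre B cells, nearly doubled in SUDHL6. It was at 116, 115 and 117 CPM in the parental libraries and at 227, 231 and 227 CPM in the resistant ones. Its log2 fold change was 0.98 (interval 0.93 to 1.02, edgeR adjusted p = 1.3e-11). SUDHL16 had 143, 81.3 and 120 CPM in the parental libraries and 77.2, 115 and 67.9 CPM in the resistant ones. Again the overlap came through CE-26, the lowest parental library. The log2 fold change was -0.41 (interval -1.11 to 0.28, edgeR adjusted p = 0.53), or -0.60 (interval -1.20 to 0.00, edgeR adjusted p = 0.22) without CE-26.

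LMO2 (ENSG00000135363, chr11:33858576-33892076, minus strand), an adaptor protein that bridges DNA-binding factors, had the largest change of the 9 in SUDHL6. Its level was 8.34, 6.99 and 5.97 CPM in the parental libraries, on 237 to 284 counts each, and 25.8, 25.8 and 25.6 CPM in the resistant ones. This was a rise of 3.64-fold, a log2 fold change of 1.86 (interval 1.65 to 2.07, edgeR adjusted p = 1.5e-08), with no overlap. SUDHL16 held more LMO2 in each group, with 102, 179 and 99.9 CPM in the parental and 137, 107 and 140 CPM in the resistant libraries. CE-26 was the highest of these 6. LMO2 had a log2 fold change of 0.01 (interval -0.66 to 0.69, edgeR adjusted p = 0.99), with a sign that turned under upper-quartile scaling (-0.10), and 0.35 (interval -0.15 to 0.86, edgeR adjusted p = 0.40) without CE-26.

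**Figure D3:**
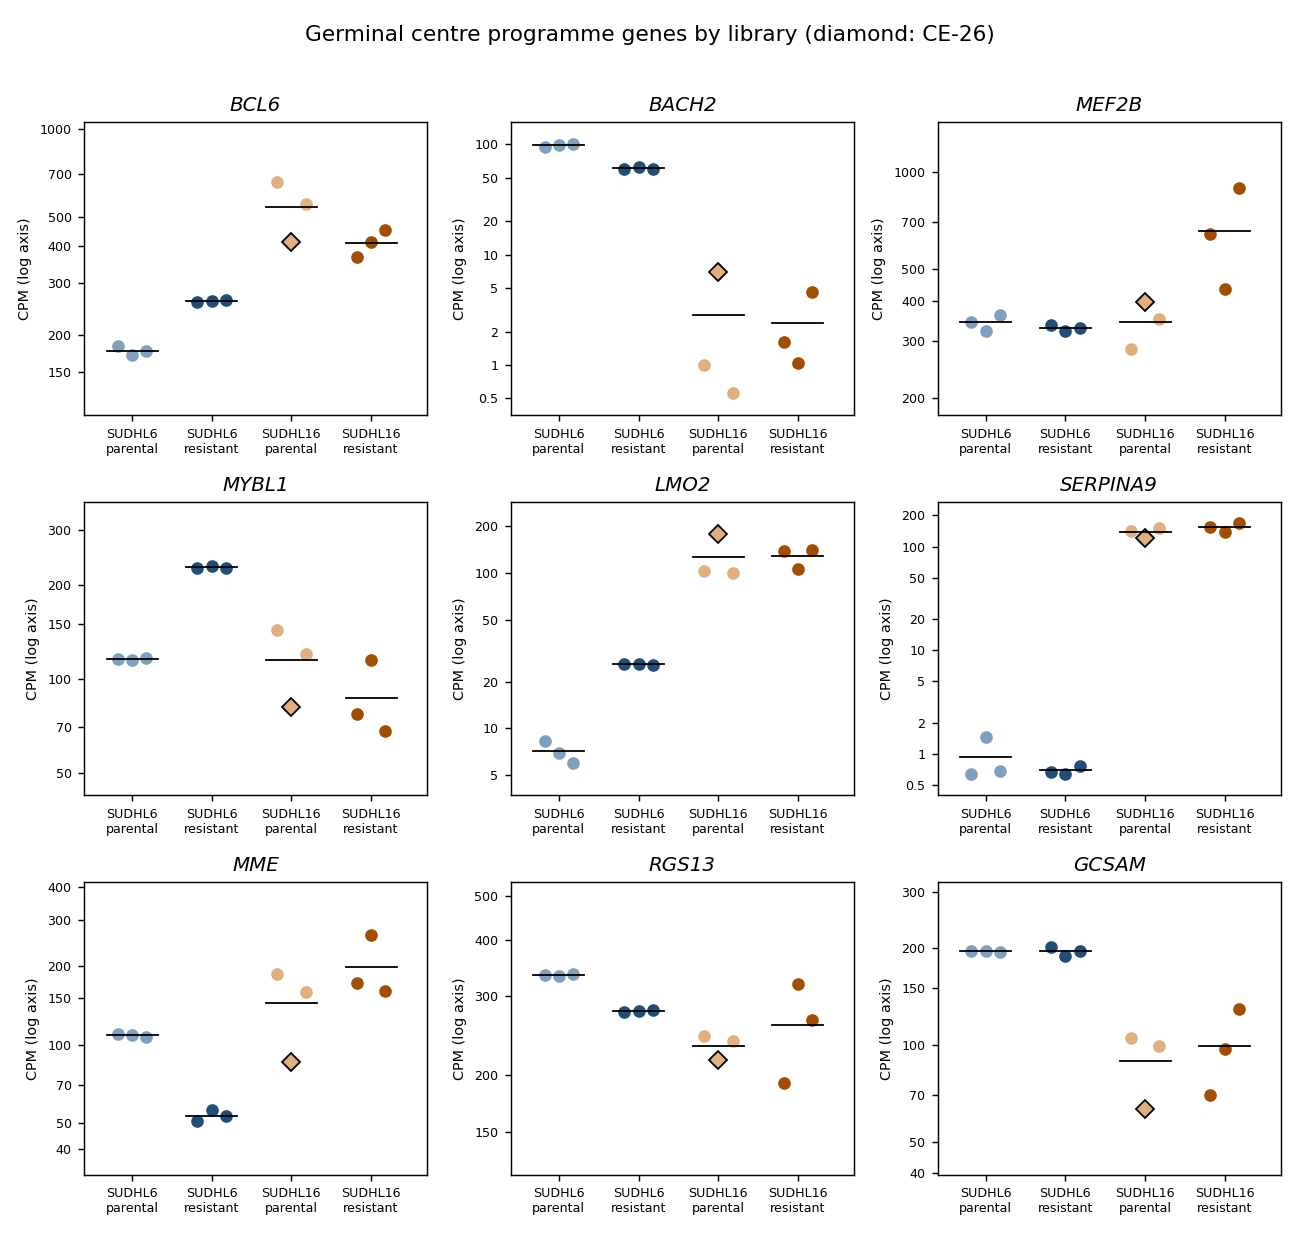
CPM of each of the 9 genes in every library, on log axes with a separate range per gene. Points are libraries in the order of their numbers within a group, bars are group means and the diamond is CE-26. LMO2 and MYBL1 are higher and BACH2 and MME lower in all 3 resistant SUDHL6 libraries than in the parental ones, and CE-26 is the lowest parental SUDHL16 library for BCL6, MYBL1, SERPINA9, MME, RGS13 and GCSAM.

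MME (ENSG00000196549, chr3:155024124-155183704, plus strand) encodes CD10, the surface peptidase used to recognise germinal centre lymphomas. It was at 109, 109 and 107 CPM in parental SUDHL6 and at 50.9, 56.3 and 53.2 CPM in resistant SUDHL6. It fell by 1.02 on the log2 scale (interval -1.09 to -0.94, edgeR adjusted p = 3.9e-10). In SUDHL16 it was at 187, 85.8 and 158 CPM in the parental libraries and at 172, 262 and 161 CPM in the resistant ones. The groups overlapped, also without CE-26, and the log2 fold change was 0.46 (interval -0.34 to 1.26, edgeR adjusted p = 0.54), or 0.21 (interval -0.39 to 0.81, edgeR adjusted p = 0.72) without that library. The antisense gene MME-AS1 had 7 to 25 counts per library in SUDHL6 and 0 to 3 in SUDHL16.

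SERPINA9 (ENSG00000170054, chr14:94462717-94479689, minus strand), a serine protease inhibitor also called centerin, was close to absent in SUDHL6. The parental libraries had 0.646, 1.45 and 0.688 CPM and the resistant ones 0.671, 0.644 and 0.771 CPM, on 22 to 49 counts each. The groups overlapped, with a log2 fold change of -0.41 (interval -1.12 to 0.31, edgeR adjusted p = 0.37) that was 0.06 without CE-8, the highest library. In SUDHL16 the level was 142, 122 and 152 CPM in the parental libraries and 154, 138 and 169 CPM in the resistant ones. The log2 fold change there was 0.15 (interval -0.38 to 0.67, edgeR adjusted p = 0.80), or 0.08 (interval -0.40 to 0.55, edgeR adjusted p = 0.88) without CE-26.

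RGS13 (ENSG00000127074, chr1:192636138-192660311, plus strand), which turns off G proteins behind chemokine receptors, was at 334, 332 and 337 CPM in parental SUDHL6 and at 276, 279 and 280 CPM in resistant SUDHL6. The difference of -0.26 on the log2 scale (interval -0.30 to -0.22, edgeR adjusted p = 2.0e-07) was larger than the spread between libraries but well under 1.5-fold. In SUDHL16 its level was 244, 216 and 239 CPM in the parental and 193, 320 and 266 CPM in the resistant libraries. The resistant libraries lay on both sides of the parental ones, with a log2 fold change of 0.15 (interval -0.47 to 0.77, edgeR adjusted p = 0.83), or 0.11 (edgeR adjusted p = 0.85) without CE-26.

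GCSAM (ENSG00000174500, chr3:112120839-112133270, minus strand), an adaptor that links the B-cell receptor to the control of cell movement, was at 197, 196 and 194 CPM in parental SUDHL6 and at 202, 190 and 196 CPM in resistant SUDHL6. Its log2 fold change of 0.00 had an interval of -0.05 to 0.06 (edgeR adjusted p = 0.96). By the spread between these libraries, which may be technical, this interval held no 1.5-fold change. In SUDHL16 it was at 105, 63.0 and 99.2 CPM in the parental libraries and 70.0, 97.3 and 130 CPM in the resistant ones. The log2 fold change was 0.15 (interval -0.55 to 0.85, edgeR adjusted p = 0.85) and turned to -0.03 (interval -0.66 to 0.59, edgeR adjusted p = 0.96) without CE-26. An overlapping gene on the opposite strand, C3orf52, had 658 to 851 counts per library in SUDHL6 against 6628 to 8118 for GCSAM.

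Whether a change differed between SUDHL6 and SUDHL16 was tested by the interaction of line and status in an edgeR fit of all 12 libraries, given as the change in SUDHL16 minus that in SUDHL6. It passed for 3 of the 9 members, where 7.16% of the 19621 genes tested passed. The change was higher in SUDHL6 than in SUDHL16 for LMO2 (difference -1.78, interval -2.39 to -1.16, edgeR adjusted p = 0.0025) and MYBL1 (difference -1.37, interval -2.14 to -0.60, edgeR adjusted p = 0.037). The change of MME was lower in SUDHL6 than in SUDHL16 (difference 1.49, interval 0.60 to 2.38, edgeR adjusted p = 0.0499). Without CE-26 the count was 6 of 9, where 14% of 20959 genes passed, and the additional members were BCL6 (difference -1.15, edgeR adjusted p = 9.2e-04), BACH2 (2.31, edgeR adjusted p = 0.042) and MEF2B (1.08, edgeR adjusted p = 0.045). With all libraries these 3 had differences of -0.94, 1.30 and 1.05, at edgeR adjusted p values of 0.076, 0.45 and 0.076. Adding the BORCS8-MEF2B counts to those of MEF2B took it out of the passing members without CE-26 (difference 0.88, edgeR adjusted p = 0.090). In the fit without CE-26, the parental SUDHL16 libraries held 18 (CE-25) and 9 (CE-27) counts of BACH2. LMO2 passed in every fit that left out 1 library, whereas MYBL1 and MME each missed the threshold in 10 of those 12 fits. MYBL1 passed without CE-26 or CE-29 and had an edgeR adjusted p of 0.078 to 0.12 in the others, and MME passed without CE-25 or CE-26 and had an edgeR adjusted p of 0.065 to 0.14 in the others. SERPINA9, RGS13 and GCSAM did not pass in either fit, with intervals of -0.26 to 1.42, -0.13 to 1.04 and -0.63 to 0.96.

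The summed level of the 9 genes was 1387, 1351 and 1399 CPM in parental SUDHL6 and 1438, 1428 and 1434 CPM in resistant SUDHL6. In SUDHL16 it was 1866, 1564 and 1774 CPM in the parental libraries and 1814, 1886 and 2286 CPM in the resistant ones, where MEF2B alone made up 895 of the 2286 CPM in CE-30. In SUDHL6 every resistant sum was above every parental sum, and in SUDHL16 the groups overlapped.

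Genes within 1 Mb of the members were compared in SUDHL6, where 8.96% of all genes were called. The 12 tested neighbours of LMO2 had a median log2 fold change of 0.02, with 1 called (KIAA1549L). They ran from -0.27 to 2.15, so the called gene was higher in resistant SUDHL6, as LMO2 was (1.86). An overlapping gene on the opposite strand of LMO2 had 0, 0 and 2 parental and 15, 5 and 10 resistant counts. The 12 neighbours of MYBL1 had a median of 0.06, with 0 called. For the 6 neighbours of MME the median was -0.22, and for the 11 of BACH2 it was 0.06, again with 0 called. The 5 neighbours of BCL6 lay between -0.41 and -0.03, all below 0 while BCL6 itself was at 0.56. For likeness in pattern, the protein-coding genes whose log2 CPM followed BCL6 most closely over the 6 SUDHL16 libraries were FAM149B1, ITSN2 and FAM98A (Pearson r = 0.984, 0.983 and 0.979 over 6 libraries, of 9832 genes compared). In SUDHL6 998 of 9461 genes had an r above 0.95 with BCL6, where the 6 libraries fall into 2 tight groups.

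Partners, relatives and other genes linked to the members were compared in 4 lists, against the 8.96% of all genes called in SUDHL6 and 5.3% in SUDHL16, or 10% without CE-26. Of the BCL6 corepressors, 1 of 9 tested was called in SUDHL6, MTA3, which rose from 47.9 ± 1.29 to 72.2 ± 3.40 CPM (mean ± SD, n = 3, log2 fold change 0.59, edgeR adjusted p = 1.0e-07). In SUDHL16 0 of 10 were called, or 1 without CE-26. With all libraries 2 of the 10, NCOR1 and RCOR1, had an unadjusted p under 0.05 in edgeR, as did 19.1% of all genes. Among MEF2 relatives, coactivators and deacetylases, 1 of 9 was called in SUDHL6, MEF2C, which rose by 1.26 from a level of 3.21 CPM, and 2 of 8 in SUDHL16. These were MEF2A, a MEF2 factor (76.4 ± 9.48 to 220 ± 48.5 CPM, log2 fold change 1.53, edgeR adjusted p = 0.015), and HDAC7, a deacetylase that binds MEF2 factors (81.8 ± 10.6 to 239 ± 25.2 CPM, log2 fold change 1.55, edgeR adjusted p = 0.0094). Of the LMO2 partners and LMO relatives, 1 of 6 tested fell in SUDHL6, the E-protein TCF4 (5.31 to 1.31 CPM, log2 fold change -2.01, edgeR adjusted p = 4.2e-06). In SUDHL16 0 of 6 were called, and TCF4 stood at 280 ± 85.8 and 370 ± 79.3 CPM. The BACH2 list held its relative BACH1, the small MAF factors MAFF, MAFG and MAFK, and the enzyme HMOX1. Of these 1 of 5 fell in SUDHL6, MAFF (-0.97, edgeR adjusted p = 2.8e-04). In SUDHL16 0 of 5 were called, or 2 without CE-26, MAFG lower and HMOX1 higher.

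Relatives of MYBL1 and RGS13 were also compared. Of all genes 8.96% were called in SUDHL6 and 5.3% in SUDHL16, where 3.2% were called higher. Neither MYB nor MYBL2 was called in SUDHL6, and MYBL2, the 1 tested in SUDHL16, was not called there. Of 6 other RGS genes, 0 were called in SUDHL6 and 3 rose in SUDHL16, RGS16 (4.93 ± 0.569 to 48.1 ± 15.2 CPM, log2 fold change 3.29, edgeR adjusted p = 0.0011), RGS19 (2.49, edgeR adjusted p = 0.011) and RGS14 (1.53, edgeR adjusted p = 0.024), while RGS13 itself was at 0.15.

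Beyond the 9 members, 29 other genes known for high levels in germinal centre B cells or GCB lymphoma were listed. In SUDHL6 3 of 29 tested were called, where 8.96% of all genes were. All 3 were lower, VPREB3 (57.5 to 35.5 CPM, log2 fold change -0.70, edgeR adjusted p = 2.3e-08), SUGCT (-1.81) and HDAC9 (-1.66), the last pair with group means under 1 CPM in that line. In SUDHL16 9 of 26 tested were called, 5 higher and 4 lower, where 5.3% of all genes were called, and 10 without CE-26, where 10% were. BCL7A, a chromatin-remodelling subunit, rose from 8.94 ± 3.04 to 104 ± 5.92 CPM (log2 fold change 3.60, edgeR adjusted p = 5.5e-04). CXCR5, the chemokine receptor that brings B cells into follicles, rose from 26.7 ± 10.1 to 304 ± 22.3 CPM (3.50, edgeR adjusted p = 0.0010), and VPREB3, part of the surrogate light chain family, rose by 1.69 (edgeR adjusted p = 0.011). CD38, a surface enzyme of germinal centre and plasma cells, fell from 18.1 ± 9.72 to 1.18 ± 0.206 CPM (-3.92, edgeR adjusted p = 0.0042). The median log2 fold change of the list was 0.03 in SUDHL6 and 0.07 in SUDHL16.

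The called genes of the light zone, where germinal centre B cells are selected with help from T cells, were all lower in resistant SUDHL6 and all higher in resistant SUDHL16. Of 12 genes, 11 were tested in SUDHL6 and 7 were called, all lower, where 4.65% of all genes were called lower. In SUDHL16 8 were tested and 4 were called, all higher (5 without CE-26), where 3.2% of all genes were called higher. CD83, an activation marker of the light zone, went from 326 ± 7.74 to 107 ± 2.77 CPM in SUDHL6 (log2 fold change -1.61, edgeR adjusted p = 1.9e-12) and from 116 ± 6.60 to 390 ± 110 CPM in SUDHL16 (1.75, edgeR adjusted p = 0.012). CD40, the receptor for T-cell help, went from 83.5 to 55.5 CPM (-0.59, edgeR adjusted p = 5.1e-08) and from 50.4 to 199 CPM (1.97, edgeR adjusted p = 0.013). ICAM1, an adhesion molecule, went from 80.0 to 50.1 CPM (-0.68, edgeR adjusted p = 8.1e-09) and from 23.8 to 92.1 CPM (1.98, edgeR adjusted p = 0.010). BCL2A1, the anti-apoptotic BFL1, fell in SUDHL6 (7.27 to 2.37 CPM, -1.62, edgeR adjusted p = 3.5e-07), and CD86, a costimulatory ligand, rose in SUDHL16 (50.8 to 151 CPM, 1.57, edgeR adjusted p = 0.036). The interaction passed for 7 of 11 genes of this list, all with the higher change in SUDHL16, where 4.34% of all genes passed in that direction. The list median was -0.66 in SUDHL6 and 1.56 in SUDHL16.

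Of the dark zone genes, those of the dividing cells, 0 of 7 were called by edgeR in SUDHL6 and 0 of 6 tested in SUDHL16. In SUDHL6 all 7 had an unadjusted p under 0.05, as did 45.2% of all genes, at changes under 1.5-fold, the largest of them AURKA, a mitotic kinase (70.1 to 98.6 CPM, log2 fold change 0.49, edgeR adjusted p = 6.3e-08), which was named after its value was seen. In SUDHL16 the count at an unadjusted p under 0.05 was 0. The list medians were 0.16 and -0.10.

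**Figure D4:**
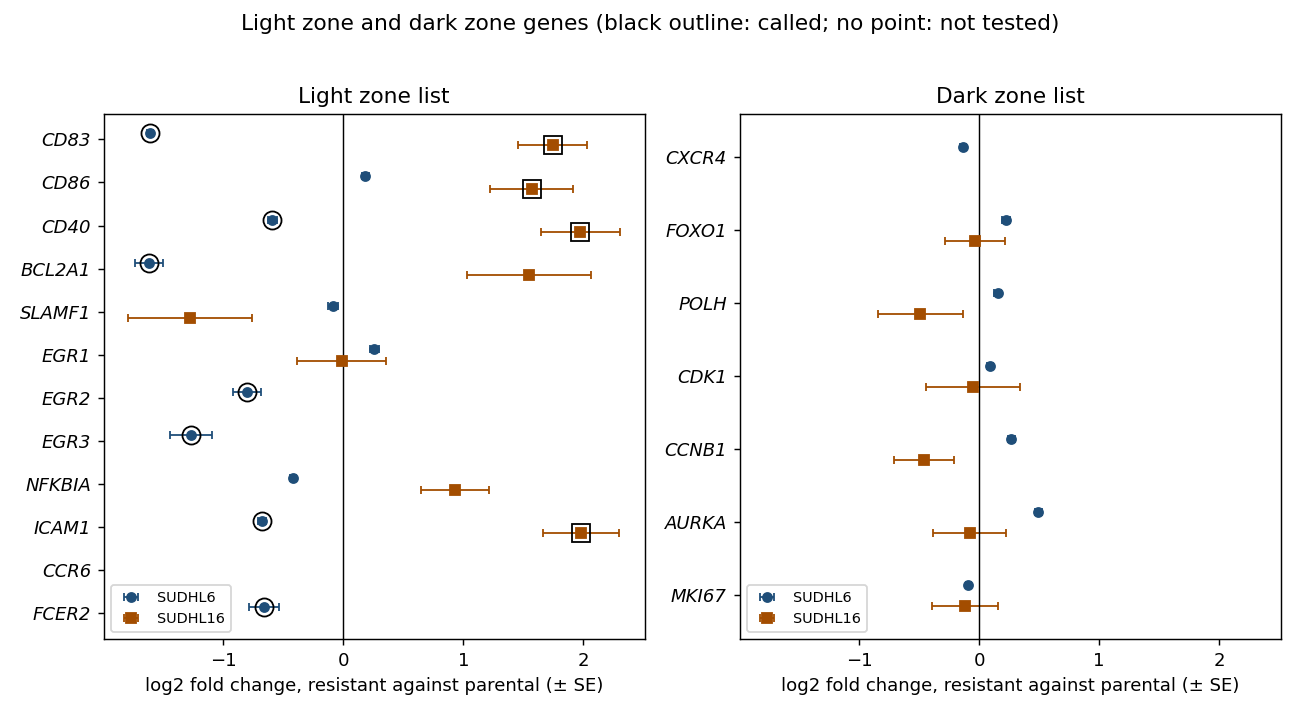
Log2 fold change ± SE, resistant against parental, of the light zone list (left) and the dark zone list (right), for SUDHL6 (circles) and SUDHL16 (squares). A black outline marks a called gene and a missing point a gene that was not tested. CD83, CD40 and ICAM1 lie below 0 in SUDHL6 and above 0 in SUDHL16, and no dark zone gene is outlined.

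Genes that BCL6 or BACH2 are known to repress were taken as a further list. In SUDHL6, where BACH2 fell and BCL6 was at 0.56, 7 of 17 were called, 6 lower and 1 higher, where 4.65% of all genes were called lower and 4.31% higher. IRF4, a factor for plasma cell entry that the cell-of-origin lists also hold, fell from 366 ± 2.95 to 194 ± 1.59 CPM (log2 fold change -0.92, edgeR adjusted p = 7.9e-12), CD69 and GPR183 fell from group means under 1 CPM (-1.72, edgeR adjusted p = 0.0012, and -1.53, edgeR adjusted p = 0.0051), and ID2, an inhibitor of E-proteins, rose from 6.60 to 15.9 CPM (1.27, edgeR adjusted p = 4.0e-07). In SUDHL16, 2 of 15 were called, both higher, where 3.2% of all genes were called higher, and 4 without CE-26. PRDM1, which encodes the plasma cell regulator BLIMP1, had 2 counts in all parental libraries together, both in CE-26, and 663 in the resistant ones (9.38 to 12.7 CPM), a ratio of 206 (95% interval 56.9 to 1708, counting error only). Without CE-26 it was at least 128-fold higher, with a floor of 3 counts over the parental group. CD80, a costimulatory ligand, rose by 2.30 (8.42 to 42.7 CPM, edgeR adjusted p = 0.038). The list median was -0.29 in SUDHL6 and 0.36 in SUDHL16.

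Genes that sort DLBCL by cell of origin were also compared. Of all genes 8.96% were called in SUDHL6 and 5.3% in SUDHL16, or 10% without CE-26. Of 7 genes typical of the GCB subtype, which include MME, SERPINA9 and MYBL1, 2 were called in SUDHL6, MYBL1 higher and MME lower, and 1 in SUDHL16, ASB13 (25.1 ± 3.74 to 63.6 ± 1.82 CPM, log2 fold change 1.33, edgeR adjusted p = 0.011), or 2 without CE-26. Of 8 genes typical of the activated B-cell subtype, 3 fell in SUDHL6, IRF4 (values above), PIM2 (115 to 68.2 CPM, -0.76, edgeR adjusted p = 6.9e-10) and LIMD1 (-1.37, edgeR adjusted p = 6.8e-06). In SUDHL16, 3 of 7 were called, PIM2 higher (63.0 to 199 CPM, 1.65, edgeR adjusted p = 0.018), CYB5R2 lower (12.8 to 0.594 CPM, -4.42, edgeR adjusted p = 0.042) and CCDC50 lower, and 6 without CE-26. CCDC50 had 565 counts in the parental and 0 in the resistant libraries, at least 303-fold lower with a floor of 3 counts over the group.

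The plasma cell markers called were lower in SUDHL6 and moved in both directions in SUDHL16, where 8.96% and 5.3% of all genes were called. In SUDHL6, XBP1 and JCHAIN fell (-0.96, edgeR adjusted p = 8.4e-07, and -0.93, edgeR adjusted p = 3.6e-12), 2 of 5 tested. In SUDHL16, 3 of 4 were called: PRDM1 and XBP1, the factor for antibody secretion, were higher (XBP1 16.4 ± 8.04 to 90.8 ± 14.0 CPM, 2.47, edgeR adjusted p = 0.010), and JCHAIN, which joins antibody chains, went from 18619 counts to 2 over the libraries of a group.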

How the data were processed

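RNA-sequencing of 12 libraries was re-analysed. The authors trimmed adapters with Trim Galore, aligned reads to GRCh38 with HISAT2 and used StringTie and edgeR, and deposited raw counts, which are whole numbers of reads per gene with no scaling. The counting tool, annotation and strand setting are not given in the sources used here. Each deposited table lists 60675 Ensembl identifiers, of which 56558 matched GENCODE release 44, and 0 columns were left out. No libraries of a group were identical.

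Each line was fitted alone with edgeR 4.0.16 in R 4.3.3 (filterByExpr, TMM scaling, two-sided quasi-likelihood test, Benjamini-Hochberg adjustment over all genes tested). A call needed 1.5-fold or more and an adjusted p below 0.05. The interaction was fitted on all 12 libraries, with a spread per gene shared by both lines, and called at an adjusted p under 0.05. CPM use the TMM factors of each line, and RPKM divide them by the union of exons. Intervals are at 95%. DESeq2 1.42.0 and limma 3.58.1 (voom with quality weights) were among the alternatives, with upper-quartile scaling, library totals, no filter, protein-coding genes only, a fit of all 12 libraries and each library left out. The members were given by symbol, and up to 4 called genes per list and line with the smallest adjusted p were named. Members and lists were chosen with earlier results of these data known, and lists were written from general knowledge. Some genes of these lists are not reported here.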

Additional observations from a re-analysis of the deposited data

Results flagged for a closer look

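The results below are those where the change in SUDHL16 differed from that in SUDHL6 in the edgeR interaction test of all 12 libraries, given as the log2 change in SUDHL16 minus that in SUDHL6. Among the members these were LMO2 (-1.78), MYBL1 (-1.37) and MME (1.49). Of all genes tested 7.16% passed, and 4.34% passed with the higher change in SUDHL16. The fit shares a spread per gene over both lines, so the adjusted p values behind these passes may be too small. For the other lists some genes outside the naming rule are also given.

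Among light zone genes the difference was 3.40 for CD83, 3.26 for BCL2A1, 2.72 for ICAM1, 2.58 for CD40, 1.41 for CD86 and 1.38 for NFKBIA, and EGR2 also passed as higher. Among genes that BCL6 or BACH2 are known to repress it was 8.22 for PRDM1, 5.26 for IRF4, 4.86 for CD69 and 2.22 for CD80, and for the plasma cell marker XBP1 it was 3.45. Of 6 plasma cell markers 4 passed, 3 higher and 1 lower. IRF4 was called in SUDHL16 only without CE-26, which held the highest parental level, 3.10 CPM. The other parental libraries had 2 counts together against 454 in the resistant ones, a ratio of 131 (95% interval 36.1 to 1085, counting error only).

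Of the other germinal centre genes 9 of 29 passed, 6 higher and 3 lower. These were CXCR5 (3.89), BCL7A (3.67), VPREB3 (2.42), DENND3 (2.30), ASB13 (1.12), PTK2 (0.67), SSBP2 (-2.14), ELL3 (-1.85) and CD38 (-3.80). Relatives and partners of the members that passed were RGS16 (3.67), RGS19 (2.67), TCF4 (2.43), HDAC7 (2.05), MEF2A (1.90), RGS2 (-1.57) and MTA3 (-0.74). Genes of the activated B-cell subtype that passed were IRF4, TNFRSF13B (higher), PIM2 (2.42), CYB5R2 (-4.91) and CCDC50 (-11.09). The value of CCDC50 and that of JCHAIN (-12.53) rest on 0 and 2 counts in the resistant SUDHL16 libraries and depend on the prior count of the fit, so they are not bounds. The ratio of JCHAIN in SUDHL16, parental against resistant, was 14954 (95% interval 4139 to 123490, counting error only).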

How the results depend on the processing

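In SUDHL6, 4 members were called in every alternative except the single fit of all 12 libraries, which shares the wider spread of SUDHL16 and called 1 member (LMO2) and 140 genes in all, and the fit without CE-7, which called 5. In SUDHL16, 1 member was called by DESeq2, by voom with quality weights and in the fit of all 12 libraries (MEF2B each time), with 1775, 2615 and 2855 genes called in all, and leaving out 1 library gave 0 members and 279 to 1636 genes against 833 with all, 1636 without CE-26 and 279 to 460 without any 1 of the other 5. The interaction passed for 5 members with DESeq2 and with voom, for 4 with upper-quartile scaling and with protein-coding genes only, for 1 with library totals and with no filter on low counts, and for 1 to 6 when 1 library was left out. Over all genes it passed for 1404, for 2933 with DESeq2, 3081 with voom, 841 with no filter and 830 to 2930 with 1 library left out, the most without CE-26, and 60.7% of the passing genes were higher in SUDHL16, or 48.6% with DESeq2. BCL6 passed in DESeq2 (adjusted p = 8.8e-05) and limma voom (1.8e-04), and in edgeR with upper-quartile scaling (0.0074) or protein-coding genes only (0.0093). It did not pass in edgeR with library totals (0.22) or no filter (0.39). Directions turned in SUDHL16 for LMO2 with DESeq2 (-0.013), upper-quartile scaling (-0.10) and protein-coding genes only (-0.060), for BACH2 with library totals (0.30), no filter (0.094), voom (1.06) and the fit of all 12 libraries (0.62), and for GCSAM with voom (-0.095, and -0.13 for the difference between the lines). With 1 library left out, the values with a turn of sign ranged in SUDHL6 from -0.60 to 0.056 for SERPINA9 and from -0.020 to 0.025 for GCSAM, in SUDHL16 from -0.11 to 0.35 for LMO2, -0.98 to 1.64 for BACH2, -0.090 to 0.36 for GCSAM and -0.031 to 0.35 for RGS13, and for the difference of GCSAM between the lines from -0.071 to 0.40. The cause of these moves was not tested. In SUDHL16 library totals and no filter moved the median of all genes by 0.13 and 0.11 on the log2 scale. No paired analysis was made, since the labels do not tie a library of 1 group to a library of another. With all libraries the SUDHL16 intervals of the members other than MEF2B include 0. For 6 members the edgeR adjusted p in SUDHL6 was under 0.05. Of these, LMO2 (1.86 against -0.66 to 0.69) and MYBL1 (0.98 against -1.11 to 0.28) had a SUDHL6 change outside the SUDHL16 interval. So did MME (-1.02 against -0.34 to 1.26) and BCL6 (0.56 against -1.06 to 0.25). For BACH2 (-0.68 against -2.52 to 2.33) and RGS13 (-0.26 against -0.47 to 0.77) the SUDHL16 interval held both 0 and the SUDHL6 change.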
